A study of Danio rerio with 6 samples.

Results

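Connexin gap junction genes were followed in the eyes of zebrafish larvae, samd7 mutants and wild type, at 5 days post fertilization. They were taken as every gene of the deposited table whose symbol starts with cx and a digit, or with gja, gjb, gjc, gjd or gje and a digit, which gave 29 of 14781 genes. RefSeq's gene table (assembly GRCz12tu) places all 29 in the family under a systematic symbol, 16 in the alpha class (gja), 7 in the beta class (gjb), 3 in the gamma class (gjc), 2 in the delta class (gjd) and 1 in the epsilon class (gje).

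Connexins are membrane proteins that assemble into rings, the hemichannels, and 2 rings docked across the gap between neighbouring cells form a channel that passes ions and small molecules. In the retina such channels act as electrical synapses between neurons and couple horizontal cells into wide sheets, and in the lens, which has no blood supply, they let fibre cells share nutrients and ions. Zebrafish kept many connexins as duplicated pairs after a whole-genome duplication, so that several members below have a sister gene.

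The samd7-/- group was 3 larvae homozygous for the stl888 allele of samd7, a Polycomb-type gene of photoreceptors, and the WT group was 3 larvae without it, all at 5 days post fertilization and all from crosses between heterozygous carriers. The eyes of 1 larva made 1 library, so whole eyes were measured and no cell type was separated. In such bulk tissue, fewer cells of a type and less RNA per cell cannot be told apart. The labels do not describe the lesion, and samd7 transcript was higher in the mutants, at 4691, 4070 and 4479 normalized read counts in samd7-/- and 1813, 1587 and 1931 in WT (log2 fold change 1.31, SE 0.12, limma adjusted p = 0.0049).

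The libraries held 23185755 to 23550042 reads on genes in samd7-/- and 23387568 to 26672265 in WT. The library of samd7-/- replicate 1 stood apart. Of 15 genes for digestive enzymes and other products of the exocrine pancreas, chosen after their values were seen, the summed count was 250886, 2565 and 4387 in samd7-/- replicates 1 to 3, against 368, 357 and 981 in WT replicates 1 to 3. They made up 1.08% of reads in samd7-/- replicate 1 and at most 0.0193% in any other library. Results that rest on this library are given with and without it.

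The summed connexin count did not differ between the genotypes beyond the spread between larvae, and no single connexin passed the main test. The 29 genes together gave 15713, 15455 and 13272 counts in samd7-/- and 13938, 14911 and 15841 in WT, ranges that overlapped. This sum leans on cx43, cx35b and cx23, with means of 4514, 3286 and 2735 counts over all libraries, so it says little about the other connexins. Of the 29, 18 passed the filter on low values, which asks for a count of 10 or more in 3 libraries or more, and were tested with limma on log2(value + 1), and 0 of these had an adjusted p under 0.05, where 0.301% of the 11959 tested genes did. edgeR on recovered reads also called 0 of 18 (0.284% of its genes), and DESeq2 called 1 of 27, cx35b (0.679% of its genes).

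At an unadjusted p under 0.05 there were 3 of the 18 connexins with limma, cx35b, cx52.9 and cx23, where 6.33% of all tested genes reached it. edgeR also gave 3 at that level (6.41% of its genes) and DESeq2 gave 5 of 28 (5.82% of its genes), the same 3 with cx28.9 and cx32.3 added. The genotypes did not overlap for 2 of the 18, cx35b and cx52.9, or 11.1%, where 13.1% of all tested genes were apart. Both were higher in the mutants (6.66% of all tested genes), and 0 were lower (6.39%). Of the 10 untested connexins with any read, cx28.9, cx41.8 and cx45.6 were also apart, beside 7.84% of all genes under the filter with a read. Log2 fold changes ran from −0.60 to 0.67, 7 positive and 11 negative, with a median of −0.13 against 0.000818 for all tested genes.

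**Figure D1:**
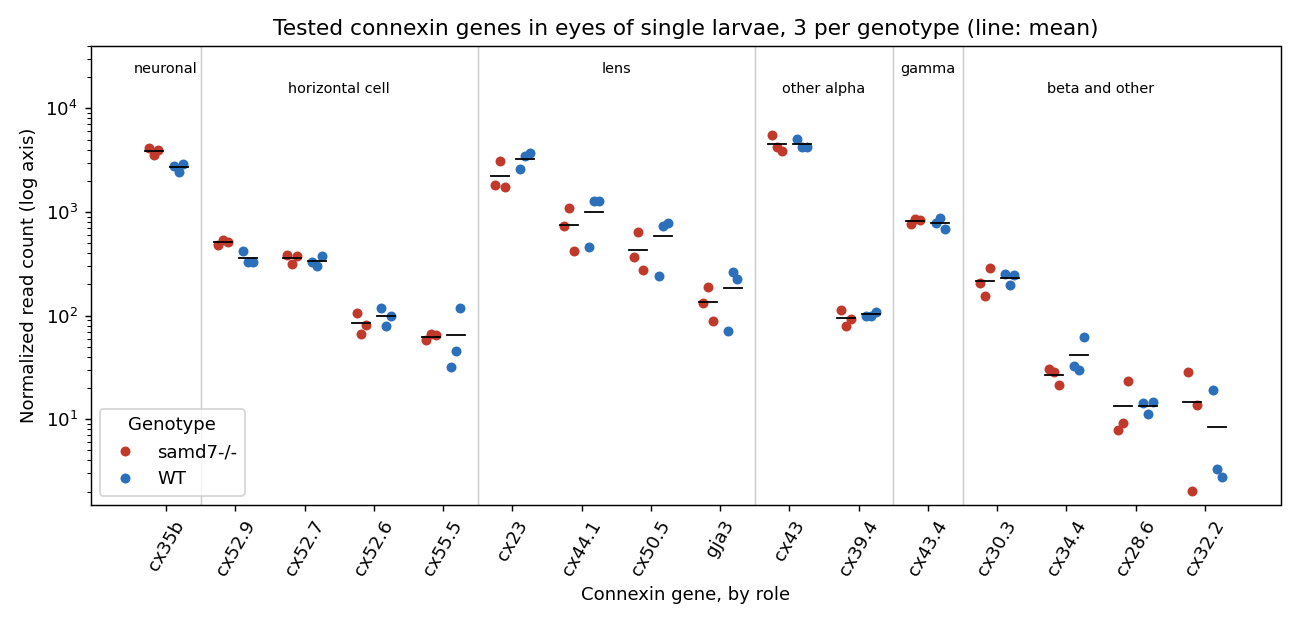
Normalized read count (log axis) of 16 of the 18 tested connexins in each library, 3 samd7-/- larvae left of 3 WT larvae for each gene, with genes grouped by role and a line at each mean. The mutant and WT points are apart for cx35b and cx52.9 and overlap for the other 14.

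The clearest difference lay in cx35b (gjd2b), the delta connexin that corresponds to mammalian Cx36, the main channel protein of electrical synapses, which joins photoreceptors, bipolar cells and amacrine cells in the retina. It had 4176, 3546 and 3936 counts in samd7-/- and 2751, 2434 and 2870 in WT. Every mutant larva lay above every WT larva, and the mutant mean was 1.45 times the WT mean (3886 ± 318 in samd7-/- and 2685 ± 226 in WT, SD, n = 3 each). The log2 fold change was 0.53 (SE 0.12, 95% interval 0.27 to 0.80, limma unadjusted p = 0.00161), which put it at rank 72 of 11959 genes and left an adjusted p of 0.268. edgeR gave an adjusted p of 0.403.

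DESeq2 on the recovered reads did call cx35b (adjusted p = 0.0311), as did the authors' deposited table (log2 fold change 0.53, adjusted p = 0.0311). That call was lost with WT replicate 2 (adjusted p = 0.175), samd7-/- replicate 1 (0.422) or samd7-/- replicate 3 (0.265) left out, and kept with WT replicate 1 (0.0116), WT replicate 3 (0.0194) or samd7-/- replicate 2 (0.0189) left out. Leaving out single libraries moved limma's log2 fold change within 0.46 to 0.60.

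The summed counts of markers of the cells that use this channel differed by smaller ratios than cx35b did. The 6 amacrine cell markers summed to 29294 to 31184 counts in samd7-/- and 25751 to 26960 in WT, which do not overlap, a ratio of means of 1.14. None of the 6 passed, and slc6a1b, a GABA transporter and the most counted of them, had a log2 fold change of 0.37 (limma adjusted p = 0.739). Per 1000 amacrine marker counts, cx35b stood at 134, 118 and 134 in samd7-/- and 107, 91.7 and 106.5 in WT, so the genotypes stayed apart at a ratio of 1.27.

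The 6 bipolar cell markers, 0 of which passed, summed to 43491 to 52928 counts in samd7-/- and 43494 to 44935 in WT, which overlap. The most counted, gnao1b, for a G protein that ON bipolar cells use, had a log2 fold change of 0.12. Its mean was 22573 counts in samd7-/- and 20757 in WT, so it weighs heavily in the sum. The 4 photoreceptor markers summed to 126278 to 159475 counts in samd7-/- and 135229 to 161442 in WT, also overlapping. Among these 4, the rod transducin gnat1 fell (log2 fold change −2.33, limma adjusted p = 0.0354), with a mean of 5382 in samd7-/- and 25007 in WT. The ratio of the mean sums was still 0.990, so this sum does not show that fall. Relative to bipolar markers the cx35b ratio of means was 1.36, and relative to photoreceptor markers 1.46, with the genotypes apart in both. Such sums are not cell counts, and the part of cell content in the cx35b values was not tested. Whether each marker is confined to its cell type was not tested either.

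**Figure D2:**
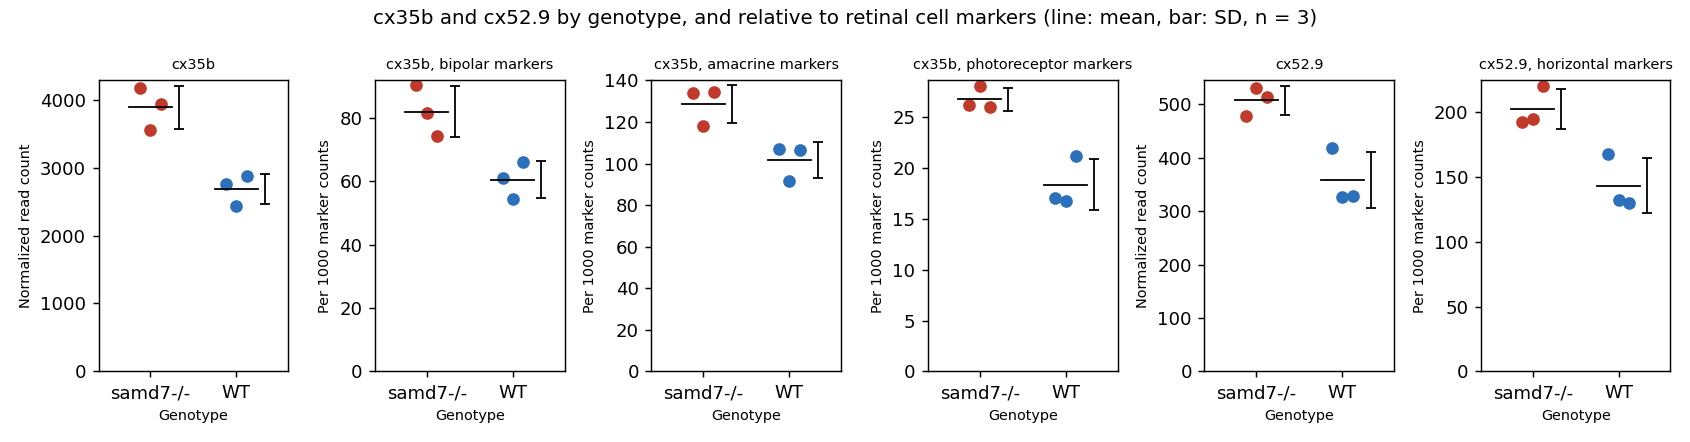
Normalized read counts of cx35b and cx52.9, and the same genes per 1000 counts of marker genes of retinal cell types, for 3 samd7-/- larvae (left in each panel) and 3 WT larvae, with lines at means and bars of 1 SD. In every panel all mutant points lie above all WT points.

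Horizontal cells, the interneurons that feed back onto cones, have connexins of their own in zebrafish: cx52.6 and cx52.7 (gja10b and gja10a) and cx52.9 and cx55.5 (gja9b and gja9a). All 4 were tested and 0 passed, with 3 positive and 1 negative fold change, where the sign of cx55.5 turned with edgeR and DESeq2, which gave 2 of each. cx52.9 had 478, 531 and 513 counts in samd7-/- and 418, 327 and 328 in WT. The mutants were all higher, with a mean of 507 ± 27.1 in samd7-/- and 358 ± 52.1 in WT (SD, n = 3 each), and WT replicate 1 lay nearest to them. The log2 fold change was 0.51 (SE 0.15, 95% interval 0.16 to 0.86, limma unadjusted p = 0.00975, adjusted p = 0.622), and DESeq2 called the gene with WT replicate 1 left out (adjusted p = 0.0109) but not with all 6 libraries (0.363).

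Its sister gene cx55.5, whose hemichannels are known for their part in feedback to cones, showed no such separation. It had 58.0, 65.7 and 64.5 counts in samd7-/- and 31.5, 45.5 and 117 in WT, so the WT larvae spanned the mutants (log2 fold change 0.17, 95% interval −0.87 to 1.22, limma adjusted p = 0.956). The log2 fold change was −0.05 with edgeR, −0.05 with DESeq2 and −0.22 without WT replicate 1, and 0.71 without WT replicate 3. cx52.7 had 386, 313 and 372 in samd7-/- and 332, 303 and 380 in WT (log2 fold change 0.08, 95% interval −0.29 to 0.45). cx52.6 ran from 66.7 to 106 in samd7-/- and from 80.0 to 119 in WT (log2 fold change −0.24, 95% interval −0.86 to 0.38).

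The horizontal cell markers found in the table, 5 of 7 listed, summed to 2488, 2726 and 2336 counts in samd7-/- and 2496, 2473 and 2527 in WT. The mutant range enclosed the WT range, 0 of the 5 passed, and prox1a, a homeobox factor of horizontal cells and the most counted, had a log2 fold change of −0.07. Per 1000 of these counts, cx52.9 stood at 192, 195 and 220 in samd7-/- and 167, 132 and 130 in WT. Within the horizontal cell connexins, cx52.9 took 46.46, 54.4 and 49.8% of counts in samd7-/- and 46.39, 43.2 and 35.52% in WT. Samd7-/- replicate 1 and WT replicate 1 were thus almost level in this share. The part of horizontal cell content in the cx52.9 values was not tested. Whole eyes were measured, and whether these markers are confined to horizontal cells was not tested either.

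**Figure D3:**
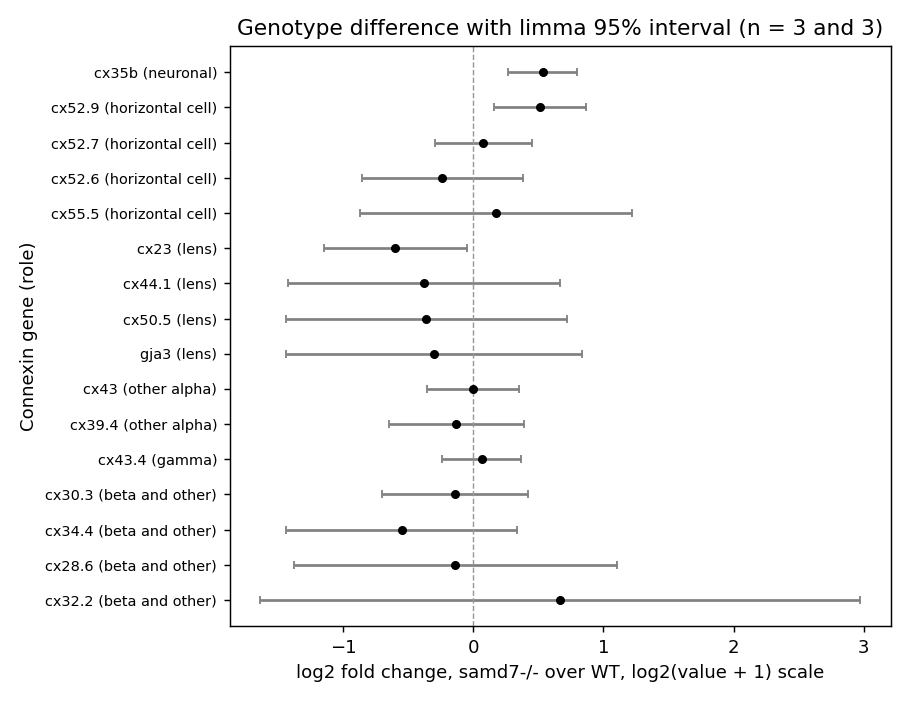
Log2 fold change of 16 of the 18 tested connexins, with samd7-/- on top of the ratio and a pseudocount of 1, and limma's 95% interval from 3 and 3 libraries, ordered by role. The intervals of cx35b, cx52.9 and cx23 lie to one side of 0 before adjustment for the number of genes, and the others include 0.

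Lens connexins all had lower means in the mutants, but with wide spread in both genotypes. cx44.1 and cx50.5 (gja8b and gja8a) correspond to mammalian Cx50 and gja3 to Cx46, the channel proteins of lens fibre cells, and cx23 (gje1a) belongs to the small epsilon class, which in mice is needed for the lens. All 4 were tested, 0 passed, and all 4 fold changes were negative, with a median of −0.37. cx23 had 1800, 3110 and 1724 counts in samd7-/- and 2604, 3481 and 3692 in WT. The mutant replicate 2 lay inside the WT range, and the other mutants below it.

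For cx23 the log2 fold change was −0.60 (SE 0.24, 95% interval −1.14 to −0.05, limma unadjusted p = 0.0355, adjusted p = 0.747). It stayed negative with any 1 library left out, between −0.87 without samd7-/- replicate 2 and −0.45 without samd7-/- replicate 3. DESeq2 called it without samd7-/- replicate 2 (adjusted p = 0.00212) but not with all 6 libraries (0.654).

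The other lens genes varied widely within both genotypes. cx44.1 had 737, 1100 and 419 counts in samd7-/- and 457, 1274 and 1273 in WT (log2 fold change −0.38, 95% interval −1.42 to 0.67, limma adjusted p = 0.897). cx50.5 had 371, 635 and 276 in samd7-/- and 240, 734 and 779 in WT (log2 fold change −0.36, adjusted p = 0.903). gja3 had 133, 188 and 89.0 in samd7-/- and 70.7, 262 and 226 in WT (log2 fold change −0.30, adjusted p = 0.926, with the sign turned at 0.04 without WT replicate 2). In each of these 3 genes samd7-/- replicate 3 and WT replicate 1 were the lowest libraries, and WT replicates 2 and 3 the highest. Without WT replicate 1 the log2 fold change of cx44.1 was −0.87, and without samd7-/- replicate 3 it was −0.01.

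Lens fibre markers also had lower summed means in the mutants. The 11 markers found of 12 listed, crystallins and lens membrane and filament genes, summed to 1306784, 1739806 and 1105438 counts in samd7-/- and 1404373, 2585206 and 2034022 in WT, with a ratio of means of 0.689 and a median log2 fold change of −0.52. None of the 11 passed, and crybb1, a beta crystallin and the most counted, had a log2 fold change of −0.50 (limma adjusted p = 0.820). Per 1000 lens fibre marker counts, cx23 stood at 1.38, 1.79 and 1.56 in samd7-/- and 1.85, 1.35 and 1.82 in WT. These values overlap, at a ratio of means of 0.942. On the same scale the ratio was 1.09 for cx44.1, 1.07 for cx50.5 and 1.10 for gja3. The genotypes overlapped for these genes on this scale, as all 4 already did in their counts, and the part of lens content in the connexin values was not tested.

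**Figure D4:**
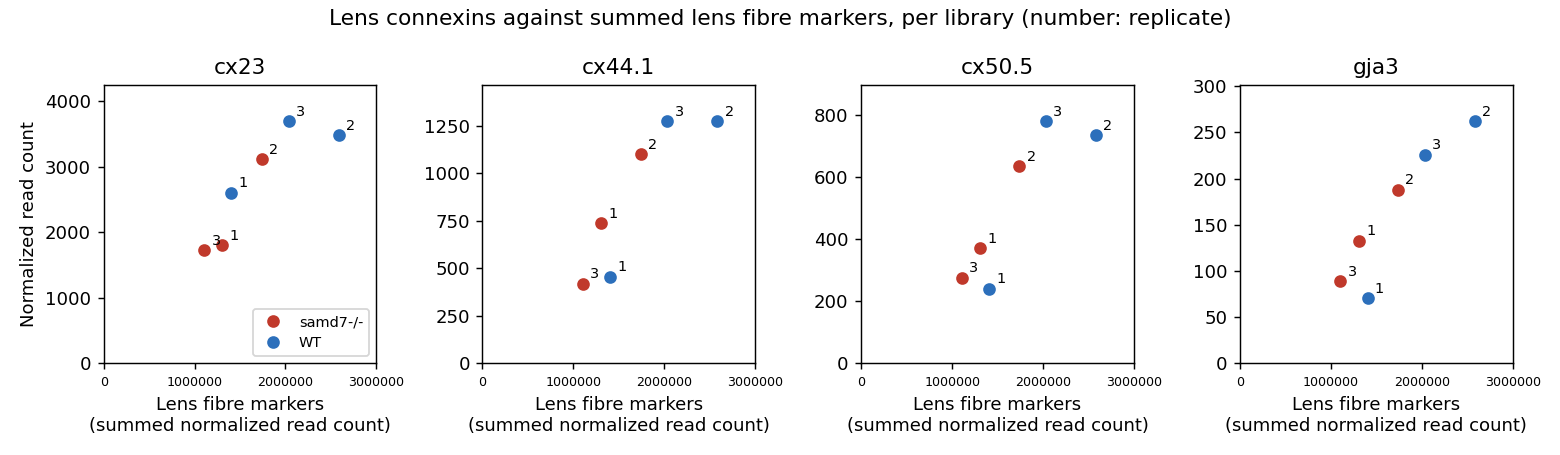
Normalized read count of each lens connexin against the summed normalized read count of 11 lens fibre markers, 1 point per library, red for samd7-/- and blue for WT, with the replicate number beside it. Within samd7-/- the 3 libraries stand in the same order for the markers and for each of the 4 connexins, and within WT replicate 1 is lowest for both.

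Among the other alpha connexins, 2 of 5 were tested and 0 passed. cx43 (gja1b), the counterpart of the most widespread mammalian connexin, which glia also use and which in zebrafish sets fin length, had 5489, 4222 and 3867 counts in samd7-/- and 5084, 4223 and 4199 in WT. The means were close, at 4526 ± 853 in samd7-/- and 4502 ± 504 in WT (SD, n = 3 each), and the log2 fold change was −0.00280 (95% interval −0.36 to 0.35, limma adjusted p = 0.998), a sign that turned under other settings. The 7 Muller glia markers, 0 of which passed, summed to 122898 to 151079 counts in samd7-/- and 121277 to 146582 in WT, with glutamine synthetase, glula, at a log2 fold change of 0.06.

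cx39.4 (gja4), which with cx41.8 is needed for the pigment stripes of zebrafish, had 113, 78.9 and 91.9 counts in samd7-/- and 98.5, 99.97 and 109 in WT (log2 fold change −0.13, 95% interval −0.65 to 0.39, limma adjusted p = 0.933). cx41.8 (gja5b), the gene of the leopard stripe mutants, did not pass the filter. It had 22.6, 9.10 and 11.7 counts in samd7-/- and 3.82, 4.44 and 6.42 in WT, or 44 reads in samd7-/- and 15 in WT, with all mutants higher. With all libraries cx41.8 had a DESeq2 log2 fold change of 1.56 (adjusted p = 0.897). Without samd7-/- replicate 1, which held 23 of the 44 reads, cx41.8 stood at 1.09 (DESeq2 adjusted p = 0.9995). Its sister gene cx45.6 (gja5a) had 3.93, 3.03 and 2.93 in samd7-/- and 4.78, 5.55 and 12.8 in WT, with all mutants lower. Fitted with no filter, neither passed (adjusted p = 0.753 for cx41.8 and 0.830 for cx45.6).

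Both gja5 genes correspond to mammalian Cx40 of artery walls and heart. The vessel markers, 6 of 7 found and 0 passing, summed to 1165 to 1663 counts in samd7-/- and 1055 to 1327 in WT, which overlap, and the endothelial factor fli1a had a log2 fold change of 0.01. The iridophore marker pnp4a, an enzyme of the silvery pigment cells, had a log2 fold change of −0.28. The 6 pigment epithelium markers summed to 41116 to 132578 counts in samd7-/- and 58485 to 129843 in WT. Among them tyrp1b had a log2 fold change of −0.51. Neither list had a gene that passed. cx39.9 (gja2), a channel of slow muscle in zebrafish, was under the filter with 12 reads in samd7-/- and 22 in WT. The 6 muscle markers summed to 19448 to 51189 counts in samd7-/- and 27572 to 76723 in WT. None of the 6 passed, and the myosin light chain mylpfa had a log2 fold change of −0.47.

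Of 3 gamma connexins, 2 were tested and 0 passed. cx43.4 (gjc4b), best known from the early embryo and the notochord, had 760, 853 and 833 counts in samd7-/- and 791, 869 and 688 in WT, ranges that overlapped (log2 fold change 0.06, 95% interval −0.24 to 0.37, limma adjusted p = 0.945), a sign that turned without WT replicate 3. cx44.2 (gjc4a.1) was under the filter with 26 reads in samd7-/- and 17 in WT, and its genotypes overlapped too.

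Beta connexins, which in mammals serve epithelia such as skin, liver and inner ear, were mostly low. Together with the alpha genes gja11 to gja13 they made a group of 11, of which 5 were tested, 0 passed, and 4 had negative fold changes with limma. cx30.3 (gjb8) had 205, 156 and 286 counts in samd7-/- and 250.5, 198 and 248 in WT (log2 fold change −0.14, 95% interval −0.70 to 0.42). The genotypes overlapped.

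The beta gene cx34.4 (gjb10) ran from 21.5 to 30.5 counts in samd7-/- and from 30.0 to 61.5 in WT (log2 fold change −0.55, limma adjusted p = 0.835), and cx28.6 (gjb9a) from 7.86 to 23.5 in samd7-/- and from 11.1 to 14.7 in WT (log2 fold change −0.14, with the sign turned under edgeR and DESeq2). Under the filter were cx27.5 (gjb1a), the counterpart of mammalian Cx32 of liver and myelin, with 17 reads in samd7-/- and 34 in WT, cx28.8 (gjb7) with 10 in samd7-/- and 20 in WT, and cx30.9 (gjb9b) with 16 in samd7-/- and 22 in WT. The 6 markers of surface ectoderm summed to 233073 to 260683 counts in samd7-/- and 262258 to 281080 in WT, which do not overlap, at a ratio of means of 0.917. None of the 6 passed, keratin krt4 had a log2 fold change of −0.07, and their part in the beta connexin values was not tested.

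The clustered alpha genes cx28.9 (gja12.1) and cx32.3 (gja13.1) were counted almost entirely in 1 library. cx28.9 had 79.6, 5.06 and 3.91 counts in samd7-/- replicates 1 to 3 and 0.956, 2.22 and 1.83 in WT. cx32.3 had 68.8, 5.06 and 0.978 in samd7-/- and 0, 1.11 and 0 in WT. Samd7-/- replicate 1 thus stood over 10-fold above every other library in both genes, and it is the library with 1.08% of reads on exocrine pancreas genes. In that library 54 genes, or 0.453% of the 11908 counted at 10 or more there, stood at least 5-fold above every other library, and these 2 connexins are among them, beside pancreas enzyme genes such as cpa5, try and ela2. The 54 also hold genes of other kinds, among them the homeobox genes hoxc6a and hoxb5a, each at 13.8 counts in that library and 0 in the others, and the transcription factor gene irf1b, at 239.9 in that library. They were chosen after their values were seen.

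Without samd7-/- replicate 1, cx28.9 averaged 4.48 counts in samd7-/- (n = 2, 9 reads) and 1.67 in WT (n = 3, 5 reads), and cx32.3 averaged 3.02 in samd7-/- (6 reads) and 0.370 in WT (1 read). DESeq2 gave cx28.9 an adjusted p of 0.102 with all libraries and 0.9995 without that library, and gave cx32.3 0.0612 and 0.9995. With samd7-/- replicate 2 or 3 left out instead, DESeq2 called both genes (adjusted p = 0.0342 and 0.0351 for cx28.9, 0.0401 and 0.0138 for cx32.3). The part of the pancreas RNA in these values was not tested. Leaving out samd7-/- replicate 1 removes all of its RNA, so it cannot single out the pancreas RNA.

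The neighbouring gene cx32.2 (gja13.2) was highest in the same library but did not follow it as closely. It had 28.5, 2.02 and 13.7 counts in samd7-/- and 19.1, 3.33 and 2.75 in WT (log2 fold change 0.67, 95% interval −1.64 to 2.97, limma adjusted p = 0.916), with the sign turned at −0.05 without samd7-/- replicate 1. Near these genes, cx34.5 (gja11) had 1 read in samd7-/- replicate 1 and 0 elsewhere. In RefSeq's gene order cx28.9, cx32.3 and cx34.5 follow each other with 0 protein-coding genes between them, and cx32.2 lies next to cx43. Between cx32.2 and cx28.9 lie 2 protein-coding genes, tbc1d32 and the connexin gja12.2, which was not analysed here.

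**Figure D5:**
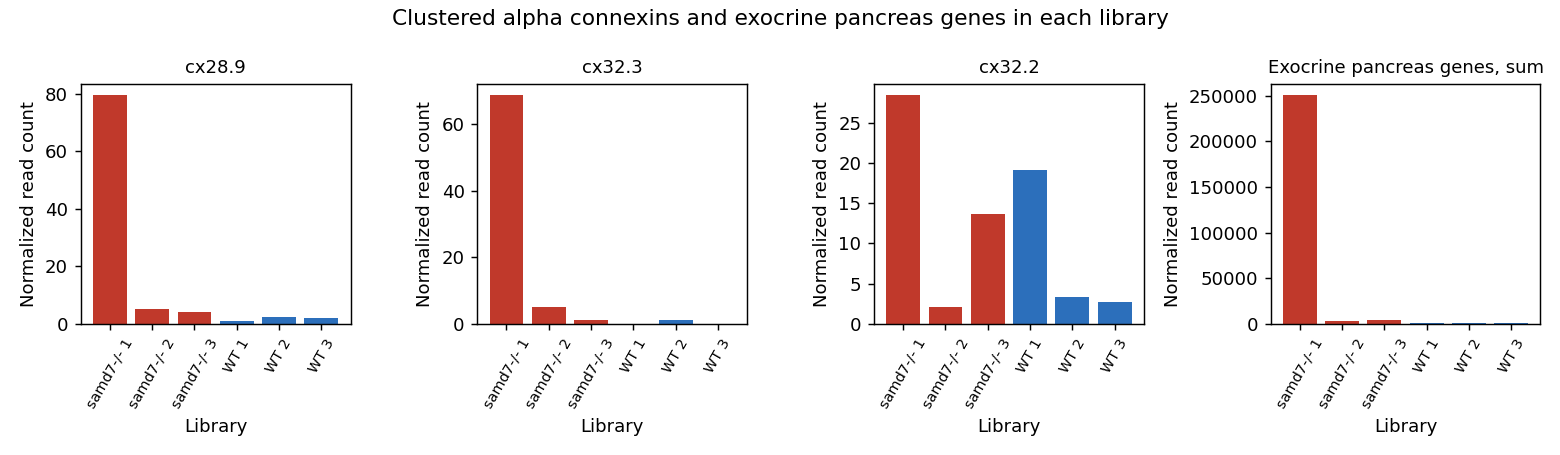
Normalized read count of cx28.9, cx32.3 and cx32.2 and the summed count of 15 exocrine pancreas genes, 1 bar per library, samd7-/- libraries (red) left of WT libraries (blue). Samd7-/- replicate 1 holds nearly all counts of cx28.9, cx32.3 and the pancreas genes, while cx32.2 is also counted in samd7-/- replicate 3 and WT replicate 1.

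cx36.7 (gjd6), the delta connexin of the embryonic zebrafish heart, had 0 reads in all 6 libraries, where 0 reads allow up to 3 in each. The remaining blood list (2 of its 3 genes at 0 in all libraries) was carried by the red cell enzyme alas2 alone, at 45.0 ± 16.9 counts in samd7-/- and 33.2 ± 23.6 in WT (SD, n = 3 each).

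The genes tested that work beside connexins did not pass either. Pannexins are vertebrate channel proteins of similar build that rarely form junctions, and ZO proteins (tjp genes) anchor connexins at the membrane. Of 4 pannexins and 5 tjp genes listed, 3 of each were found in the table. The pannexin panx3 and the scaffold genes tjp1a and tjp1b were not found, so nothing is known of them here. All 6 were tested and 0 passed, also with edgeR and DESeq2, and 0 had an unadjusted p under 0.05 in any of these. panx1b had 345, 280 and 334 counts in samd7-/- and 359, 358 and 282 in WT (log2 fold change −0.06, 95% interval −0.45 to 0.34). tjp2a, for the scaffold ZO-2, had 1102, 1178 and 1288 in samd7-/- and 878, 1181 and 1170 in WT (log2 fold change 0.15, 95% interval −0.19 to 0.50). The genotypes did not overlap for 2 of the 6, panx2 and tjp2b, where 13.1% of all tested genes were apart, and both were chosen for mention after their values were seen. The neuronal pannexin panx2 had 23.6, 25.3 and 25.4 in samd7-/- and 11.5, 18.9 and 11.9 in WT, with all mutants higher (log2 fold change 0.80, SE 0.40, limma adjusted p = 0.791). tjp2b had 784.5, 773.5 and 886 in samd7-/- and 768, 745 and 593 in WT, also with all mutants higher (log2 fold change 0.22, SE 0.14, limma adjusted p = 0.826).

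The width of the intervals, which are not adjusted for the number of genes, differed with the count but not with the count alone. For the 9 tested connexins with a mean of at least 300 counts the 95% interval of the log2 fold change reached a median of 0.35 to either side, and for the 9 below that 0.89. Single genes departed from this split. The interval of cx44.1, at a mean of 877 counts, ran from −1.42 to 0.67. That of cx39.4, at a mean of 98.6, ran from −0.65 to 0.39. A connexin that did not pass is therefore not shown to be equal in both genotypes.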

How the data were processed

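Eyes of 6 single larvae were sequenced, 3 samd7-/- and 3 WT, grouped by sample title. Per the labels, SMARTer Ultra Low libraries (which do not mark strand) were read as pairs. Per the submitters' processing notes, reads were handled with R 4.1.3, DESeq2 1.34.0, HTSeq 0.9.1, STAR 2.7.2b and Trim Galore 0.6.1 on build danRer10 (gene annotation not given in the sources used here). Each deposited value is a size-factor-normalized signal. Columns with log2 fold changes and adjusted p-values were deposited too, and are called the authors' deposited table.

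Dividing by the smallest value of its library turned each value into a whole number (within 0.001), so reads were recovered for edgeR 4.0.16 and DESeq2 1.42.0. In samd7-/- replicate 2 this smallest value, 1.01, lies too near 1 for an independent check. The main test was limma 3.58.1 (limma-trend, R 4.3.3) on log2(value + 1), 2-sided, over the 11959 genes that reached 10 in 3 libraries or more, adjusted by Benjamini-Hochberg, threshold 0.05. The pseudocount shrinks fold changes of low genes. The fits were tested on simulated counts with a fixed spread and larger fold changes than that of cx35b. That test cannot tell how often smaller differences are found in these larvae. Libraries of the same genotype differed beyond sampling noise (chi-square per degree of freedom 44.3 to 114). Pairs across genotypes, which also hold any genotype difference, gave 123 to 197. Reads carry no molecular identifiers, so a limit from 0 reads (3 counts) covers counting error only.

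Named were samd7, connexins with an unadjusted or adjusted p under 0.05, the 2 most counted tested ones of each role group, and from each other list the genes that passed or the most counted. As exceptions, 2 connexins are counted but not reported singly here, and the remaining connexins are described only to account for all members. Other genes were chosen after their values were seen. Markers were matched by symbol or RefSeq synonym (prkca and ba1 by synonym). The members, lists and tests were chosen with earlier results of these data known. Some counts of different genes are set side by side, in ratios, shares and pairs of neighbours. They are not transcript levels, since transcript lengths were not used. Reads of similar connexin copies may be split among them. The alternatives tried were a replicate block, dropping each library in turn, dropping the filter, a minimum of 50, pseudocounts of 0.5 and 10, TMM factors, quantile normalization, edgeR, DESeq2 and the authors' deposited table, and, added after seeing the data, DESeq2 with each library left out and clone-named connexins.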

Additional observations from a re-analysis of the deposited data

How the results depend on the processing

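The count of 0 connexins called in either direction held under every alternative with limma and with edgeR, also with 2 clone-named connexins added. With DESeq2, and in the authors' deposited table, 1 was called higher (cx35b in both). DESeq2 with each library left out called 0 to 3 higher and 0 to 1 lower. The share of all genes called in those fits was not counted. The single calls given above for DESeq2 with a library left out therefore stand without it. Of all genes, limma called 5 higher and 31 lower with all libraries. With each library left out in turn, limma called 1 to 5 higher and 6 to 23 lower. DESeq2 with all libraries called 24 higher and 66 lower, as in the authors' deposited table. Signs turned for cx43, at 0.0320 with quantile normalization, 0.00330 with edgeR, 0.00772 with DESeq2 and in the authors' deposited table, and between −0.15 and 0.10 with each library left out, for cx43.4 (−0.0249 to 0.14), cx30.3 (−0.36 to 0.0705), gja3 (−0.89 to 0.0446) and cx32.2 (−0.0482 to 1.596) with each library left out, for cx55.5, at −0.0543 with edgeR, −0.0504 with DESeq2 and in the authors' deposited table, and −0.22 to 0.71 with each library left out, and for cx28.6, at 0.00474 with edgeR, 0.00956 with DESeq2 and in the authors' deposited table, and −0.59 to 0.14 with each library left out. With DESeq2 and 1 library left out, cx39.4 also turned, at 0.0003485 without samd7-/- replicate 2. Among connexins under the filter, cx27.5 turned from −0.9464 with all libraries to 0.1337 without WT replicate 3. In these fits cx30.9 turned from −0.4526 to 0.5515 without WT replicate 1 and 0.03399 without samd7-/- replicate 2. The cause was not tested. No scaling moved the median of all genes by over 0.1. With the replicate number as a block, 0 connexins were called, and 4 genes were called higher and 29 lower. In that fit cx35b had a limma adjusted p of 0.337. Its adjusted p over all alternatives ran from 0.0116 (DESeq2 without WT replicate 1) to 0.943 (limma without samd7-/- replicate 1). Same-numbered larvae had deviations correlated at 0.0286, 0.183 and −0.00240 across genes. Samd7-/- replicates 1 and 2 correlated best with the same-numbered WT larva, and samd7-/- replicate 3 with WT replicate 1 (0.145). The labels do not say that the numbers pair larvae. Deviations from a mean of 3 larvae cannot settle it. P-values rest on 3 larvae per genotype, and connexins that did not reach 10 counts in 3 libraries were left out of the main test.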

Other observations

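RefSeq lists 37 connexin genes for zebrafish, and 2 that are outside the 29 stand in the deposited table under clone names. The rest of the 37 were not found there by symbol or RefSeq synonym, so they are not covered here. zgc:194261 is gjd1a (cx34.1), a second Cx36-type gene, which in zebrafish takes the postsynaptic side of electrical synapses on the Mauthner cell. It had 339, 399 and 390 counts in samd7-/- and 285, 306 and 377 in WT, ranges that overlap (log2 fold change 0.23, SE 0.17, limma adjusted p = 0.839). si:dkey-91f15.1 is gjc4a.2, a gamma connexin, with 37.4, 13.1 and 8.80 in samd7-/- and 90.8, 28.88 and 24.8 in WT (log2 fold change −1.24, SE 0.66, limma adjusted p = 0.791). The highest mutant lay above the lowest WT larva.

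Lens connexins kept nearly fixed proportions from library to library while their counts varied. The ratio of cx44.1 to cx50.5 lay between 1.52 and 1.99 in samd7-/- and between 1.64 and 1.90 in WT, a 1.31-fold span over all 6 libraries, where cx44.1 alone spanned 3.04-fold and cx50.5 3.25-fold. The ratio of gja3 to cx50.5 lay between 0.296 and 0.358 in samd7-/- and between 0.290 and 0.357 in WT. By contrast cx23 over cx50.5 was 4.86, 4.90 and 6.25 in samd7-/- and 10.8, 4.74 and 4.74 in WT, with WT replicate 1 apart from the rest.

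Of the 4 lens connexins, 3 sit beside another connexin. In RefSeq's gene order 0 protein-coding genes lie between cx44.1 and cx41.8, between cx50.5 and cx45.6, and between gja3 and cx30.3. cx44.1 had 2266 reads in samd7-/- and 3013 in WT. Its neighbour cx41.8 had 44 in samd7-/-, 23 of them in replicate 1, and 15 in WT. cx50.5 had 1287 reads in samd7-/- and 1761 in WT, while its neighbour cx45.6 had 10 in samd7-/- and 24 in WT. For the third pair the order was the other way, with 412 reads of gja3 in samd7-/- and 556 in WT, while its neighbour cx30.3 had 655 in samd7-/- and 710 in WT. These are counts without regard to transcript length.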
